A study of Rattus norvegicus with 42 samples.

Results

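The visual cycle genes described here are 10 genes that encode enzymes and carriers of retinoids, chosen by name: Rpe65, Lrat, Rdh5, Rlbp1, Rdh10, Rdh11, Rbp3, Abca4, Rdh12 and Rdh8. All 10 had a row among the 32623 genes of the count matrix, and all 10 passed the filter on low counts, which kept 18094 genes. Retinal mRNA was measured by polyA RNA-seq in rats that had intense light, cerium oxide nanoparticles (nanoceria), both or neither. The light damage rats were uninjected and exposed to light of 15000 lux for 24 h. Vehicle plus light rats and nanoceria plus light rats received the same light and an injection into the vitreous, of vehicle in one group and of 1 mM nanoceria in the other. Vehicle rats and nanoceria rats had the injection without the light, and control rats had neither. Counts were analysed for 7 light damage, 5 vehicle plus light, 5 nanoceria plus light, 5 vehicle, 4 nanoceria and 5 control libraries. For strain, age, interval between injection and light and time of tissue collection, the sources used here give nothing. Levels are given as CPM, the read count of a gene as a share of its library after TMM scaling of library size, which allows a gene to be compared between libraries. Gene lengths were not used, so levels are not compared between genes.

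Rods and cones detect light with a vitamin A aldehyde bound to opsin, and light converts that chromophore to its all-trans form. The visual cycle makes it usable again: Abca4 moves all-trans retinal out of the outer segment discs, Rdh8 and Rdh12 reduce it to retinol, and Rbp3 carries retinoids through the space between photoreceptors and the retinal pigment epithelium. In the pigment epithelium Lrat esterifies retinol, Rpe65 isomerises the ester to the cis form, Rdh5 oxidises that product with help from Rdh11 and Rdh10, and Rlbp1 holds the cis retinoids there and in Mueller glia. Loss of several of these genes causes inherited retinal degeneration in humans, and in rodents the supply of chromophore sets how much damage light does.

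Promoter windows of 300 bases, 250 before and 50 after the transcription start, were taken from the RefSeq promoter set of build GRCr8, in which 8 of the 10 genes had an entry and Rdh8 and Rdh10 had none. They are printed for the isomerase Rpe65, for the carrier Rlbp1, and for Rbp3 and Abca4, since these are the genes with the 4 lowest fold changes after light in uninjected retinas. Capitals mark letters that match the core motif of the photoreceptor factor CRX (TAATCC, or GGATTA on the other strand) or the E-box of the pigment cell factor MITF (CATGTG, or CACATG on the other strand, and CACGTG, which reads the same on both).
Rpe65: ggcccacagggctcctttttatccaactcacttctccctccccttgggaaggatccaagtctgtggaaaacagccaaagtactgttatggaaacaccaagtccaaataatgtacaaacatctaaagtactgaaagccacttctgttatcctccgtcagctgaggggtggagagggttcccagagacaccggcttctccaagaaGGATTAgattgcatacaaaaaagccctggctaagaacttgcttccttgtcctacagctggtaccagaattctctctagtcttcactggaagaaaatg
Rlbp1: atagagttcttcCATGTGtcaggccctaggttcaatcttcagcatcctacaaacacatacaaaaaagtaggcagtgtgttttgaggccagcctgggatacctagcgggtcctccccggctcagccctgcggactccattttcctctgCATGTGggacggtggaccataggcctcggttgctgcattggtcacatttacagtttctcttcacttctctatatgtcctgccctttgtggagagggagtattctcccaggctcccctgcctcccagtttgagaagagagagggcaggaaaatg
Rbp3: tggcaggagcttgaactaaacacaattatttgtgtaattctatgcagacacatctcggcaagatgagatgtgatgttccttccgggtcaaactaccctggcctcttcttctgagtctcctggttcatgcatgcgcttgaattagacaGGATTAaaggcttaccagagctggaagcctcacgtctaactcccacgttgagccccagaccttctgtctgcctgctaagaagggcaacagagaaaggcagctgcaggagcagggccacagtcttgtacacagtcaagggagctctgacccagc
Abca4: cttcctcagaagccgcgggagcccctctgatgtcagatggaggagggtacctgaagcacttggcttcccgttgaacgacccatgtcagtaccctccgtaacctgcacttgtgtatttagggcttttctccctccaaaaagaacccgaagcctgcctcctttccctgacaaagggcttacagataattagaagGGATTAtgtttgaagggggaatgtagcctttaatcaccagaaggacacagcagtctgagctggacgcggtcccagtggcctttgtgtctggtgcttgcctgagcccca

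These windows lie at chr2:251425118-251425417 on the plus strand (Rpe65), chr1:142731572-142731871 on the minus strand (Rlbp1), chr16:9273537-9273836 on the plus strand (Rbp3), chr2:212849235-212849534 on the plus strand (Abca4), and are written 5′ to 3′ on the strand of the gene. The CRX letters were present once each in Rpe65, Rbp3 and Abca4, read on the opposite strand as GGATTA and beginning 47, 103 and 58 bases before the start. They were found in 3 of the 8 windows, against 7.11% of 27457 promoter windows of the same length. CATGTG was present at 2 places in Rlbp1, beginning 238 and 103 bases before the start, and its reverse CACATG once in Lrat, so in 2 of 8 windows against 13.5% of all. CACGTG was in none of the 8 windows and in 6.65% of all. The 2 motifs do not overlap in these windows, and a match of letters is a description of the sequence.

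The number of reads behind each level was high: the lowest count of a visual cycle gene in any library was 777, for Rdh12, and library totals lay between 25158407 and 182162368 reads. Some libraries stand apart. Vehicle libraries 4 and 7, and light damage libraries 4 and 7, resembled each other far more than other libraries did, with a chi-square per degree of freedom of 4.40 and 10.5, where the next closest pair had 70.5. The differences still exceeded sampling noise, so each library was counted once, and results that change when each pair is summed are named. Light damage library 1 had the fewest reads, 25158407 where the others of its group had 106556304 or more, and was the highest of its group for 8 of the 10 genes, all but Rdh5 and Rdh8. Without it the 8 lower calls in light damage against control retinas held, and Rdh8 had 0.60 on the log2 scale (adjusted p = 0.0723). Nanoceria plus light library 4 had the lowest summed level of 11 rod markers, 5002 CPM, where the median of its group was 15824 CPM. The Y-linked gene Eif2s3y was above 10 CPM in 4 of 7 light damage, 2 of 5 vehicle plus light, 3 of 5 nanoceria plus light, 1 of 5 vehicle, 2 of 4 nanoceria and 4 of 5 control libraries. Judged by this 1 gene, the sexes were unevenly spread over the groups. All 20 marker genes of the pigment epithelium had counts in tissue labelled as retina. Their summed level had a median of 4907 CPM in light damage and 5485 CPM in control retinas. For 8 markers of ciliary body and iris the medians were 682 and 645 CPM, and Oca2 is in both lists. Which tissue the RNA of these markers came from was not tested. How much pigment epithelium came away with each retina is not stated in the sources used here. In bulk tissue, fewer cells of a type and less RNA per cell cannot be told apart.

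Between 5 and 8 of the 10 visual cycle genes were called lower after light, depending on the comparison. A rise was called only for Rdh8, close to the threshold, in uninjected and vehicle-injected retinas. In light damage against control retinas 8 of the 10 genes fell and 1, Rdh8, rose, against 10.6% of all tested genes called lower and 11.9% called higher. After vehicle injection, 5 fell (Rdh5, Rdh11, Rbp3, Abca4 and Rdh12) and Rdh8 rose, against 7.17% and 9.67% of all genes. After nanoceria injection, 6 fell, the same 5 genes and Lrat, against 5.78%, and none rose, against 8.15%; Rdh8 had an unadjusted p under 0.05 there, and DESeq2 and limma-voom also called none higher. The median log2 fold change of the 10 genes was -0.96, -0.71 and -0.78 in the 3 comparisons, and that of all tested genes was -0.01, 0.02 and 0.04. With only the 2 nanoceria groups in the fit, 2 of the 6 calls held, Rbp3 and Rdh11. Ranges with and without light did not overlap for 5, 7 and 5 of the 10 genes, against 11.2%, 13.7% and 12.7% of all genes. A gene counts as called at an adjusted p under 0.05 in the quasi-likelihood test of edgeR, with Benjamini-Hochberg adjustment over 18094 genes.

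**Figure D1:**
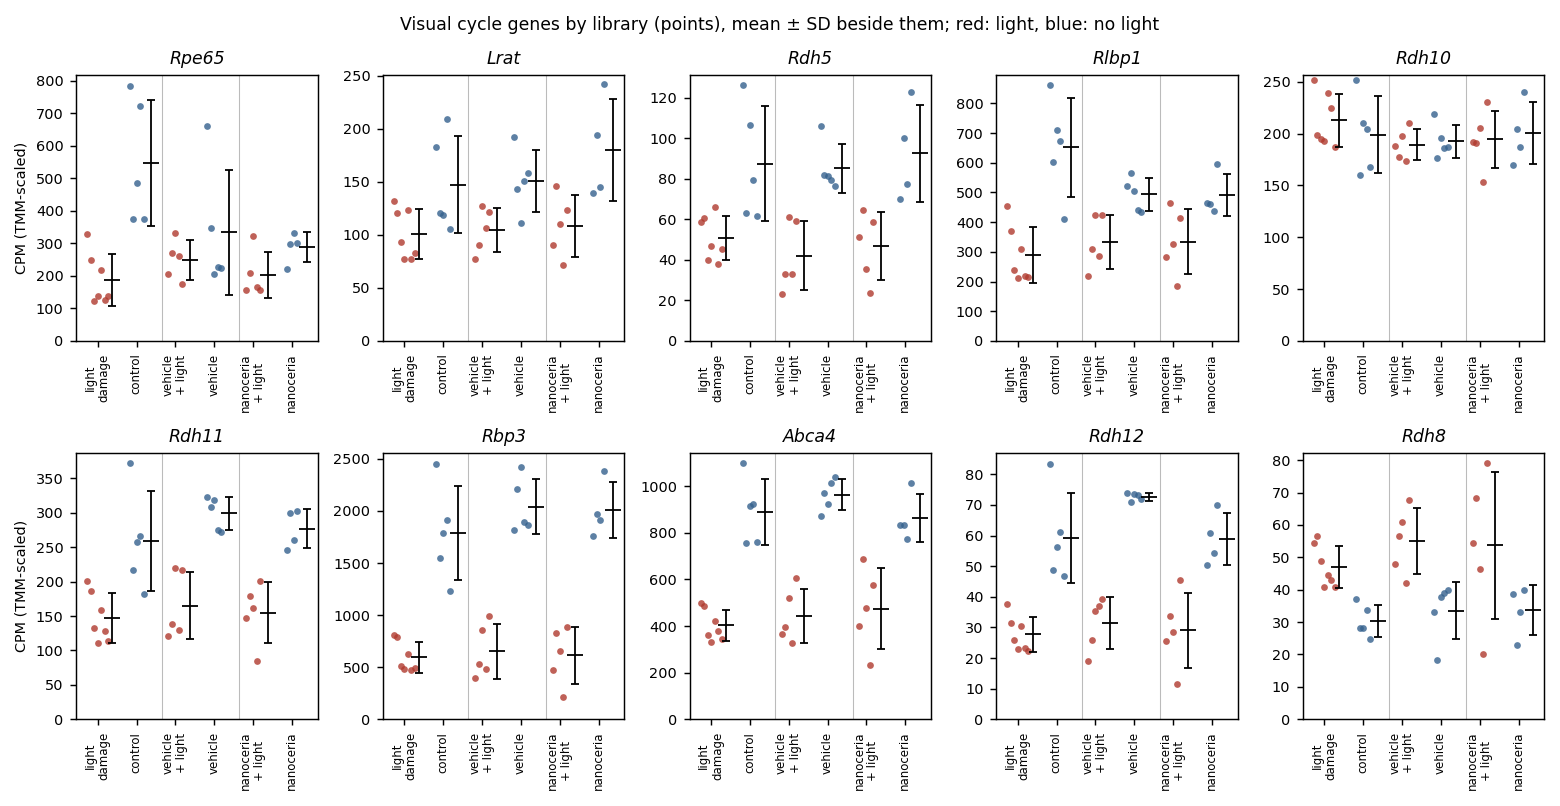
Level of each visual cycle gene in every library, in CPM on a linear axis from 0, with red points for light and blue for no light in each pair of groups and the group mean ± SD beside the points. The light points of Rbp3 and Abca4 lie below every point without light, those of Rdh10 lie among them, and those of Rdh8 lie mostly above.

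**Figure D2:**
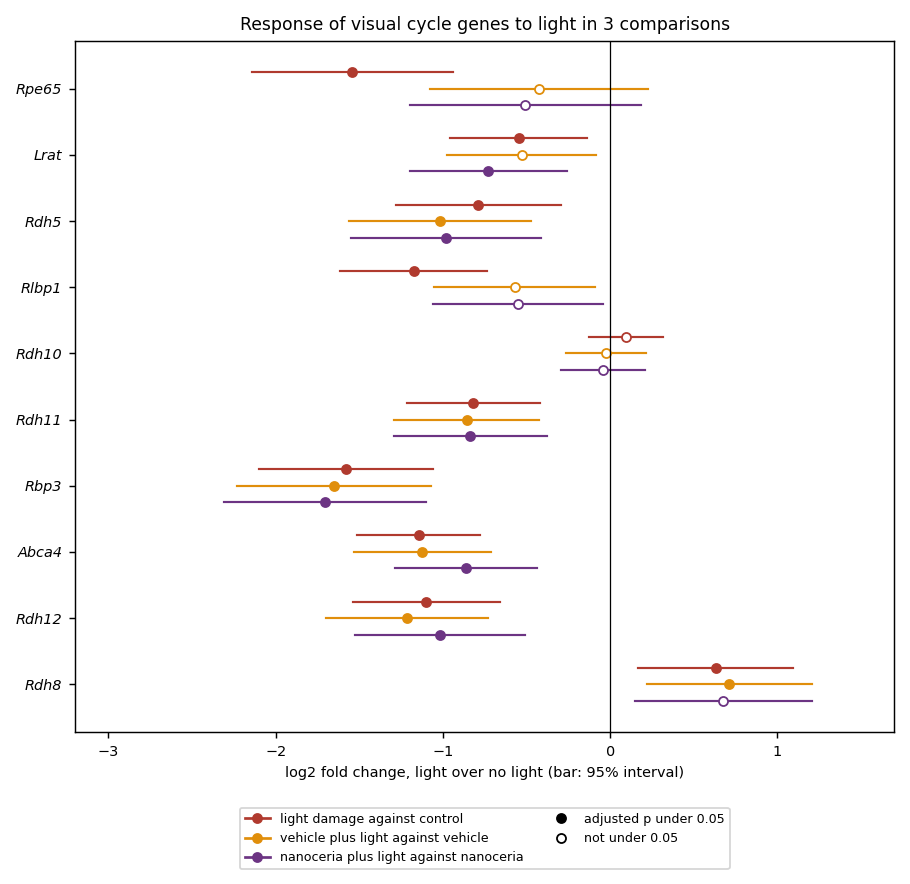
Log2 fold change of light over no light for the 10 genes in uninjected, vehicle-injected and nanoceria-injected retinas, with 95% intervals, filled where the adjusted p was under 0.05. Rbp3 lies between -1.71 and -1.58 in all 3 comparisons, while Rpe65 lies at -1.54 without injection and at -0.42 and -0.51 with it.

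Rbp3, the retinoid carrier of the interphotoreceptor matrix that photoreceptors secrete, had the lowest fold change of the 10 genes in each of the 3 light comparisons. Its level in light damage retinas had a lowest, median and highest of 469, 508 and 809 CPM, against 2447, 1547, 1793, 1911 and 1233 CPM in control retinas. The highest light damage library was below the lowest control library. Vehicle plus light retinas had 392, 534, 859.7, 479 and 992 CPM, against 1816, 2214, 2424, 1896 and 1863 CPM in vehicle retinas, and nanoceria plus light retinas had 475, 831, 659.6, 217 and 884 CPM, against 1755, 1975, 1909.6 and 2389 CPM in nanoceria retinas. In both injected pairs every illuminated library was below every one without light, and nanoceria plus light library 4 was the lowest of all 31. Its log2 fold change was -1.58 ± 0.25 (SE; adjusted p = 3.60e-05) without injection, -1.65 ± 0.28 (SE; adjusted p = 0.000116) after vehicle and -1.71 ± 0.29 (SE; adjusted p = 0.000172) after nanoceria, levels of 0.334, 0.319 and 0.306 times those without light. Without nanoceria plus light library 4 the last value was -1.49 (adjusted p = 0.000227).

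Abca4, the transporter that clears all-trans retinal from outer segment discs, also fell in all 3 comparisons. Light damage retinas had a lowest, median and highest of 330.2, 379 and 497 CPM, against 1099.7, 757, 914, 924 and 759.6 CPM in control retinas. Vehicle plus light retinas had 364, 397, 520.3, 327 and 607 CPM, against 873, 972, 923, 1014 and 1038 CPM in vehicle retinas. Nanoceria plus light retinas had 399, 688, 477, 232 and 575 CPM, against 832, 833, 773 and 1015 CPM in nanoceria retinas. No illuminated library reached the range of its group without light, and library 2 of nanoceria plus light came nearest. Light changed it on the log2 scale by -1.15 ± 0.18 (SE; adjusted p = 2.65e-05), -1.12 ± 0.20 (SE; adjusted p = 0.000164) and -0.86 ± 0.21 (SE; adjusted p = 0.00485) in uninjected, vehicle-injected and nanoceria-injected retinas.

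Rdh12 and Rdh11, dehydrogenases of the same family, fell as well. Rdh12, which reduces retinal in the inner segments and is mutated in a childhood retinal dystrophy in humans, averaged 27.7 ± 5.71 CPM in light damage (SD, n = 7) and 59.3 ± 14.7 CPM in control retinas (SD, n = 5). It averaged 31.3 ± 8.53 CPM in vehicle plus light and 72.7 ± 1.25 CPM in vehicle retinas (SD, n = 5 each), and 29.0 ± 12.3 CPM in nanoceria plus light (n = 5) and 58.8 ± 8.55 CPM in nanoceria retinas (n = 4). Ranges with and without light were separate in each pair. Its log2 fold change was -1.10 ± 0.21 (SE; adjusted p = 0.000357), -1.21 ± 0.24 (SE; adjusted p = 0.000489) and -1.02 ± 0.25 (SE; adjusted p = 0.00528). Rdh11, a dehydrogenase found in photoreceptors and in the pigment epithelium, ranged over 110.2 to 201 CPM in light damage and 181 to 373 CPM in control retinas, which overlap. Its ranges were separate in the injected pairs, 121 to 219 CPM in vehicle plus light against 272 to 322 CPM in vehicle, and 84.2 to 201 CPM in nanoceria plus light against 245 to 302 CPM in nanoceria. The log2 fold change of Rdh11 was -0.82 ± 0.19 (SE; adjusted p = 0.00244), -0.86 ± 0.21 (SE; adjusted p = 0.00495) and -0.84 ± 0.22 (SE; adjusted p = 0.0112). Without nanoceria plus light library 4 the last values were -0.69 for Abca4, -0.82 for Rdh12 and -0.68 for Rdh11, all still called. Of 9 cone markers, 1 rose and 1 fell in light damage against control retinas, 1 rose and 7 fell in the vehicle pair and 0 rose and 4 fell in the nanoceria pair. Their part in these results was not tested.

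Rdh8, the outer segment enzyme that reduces the all-trans retinal released from bleached pigment, went the other way. Light damage retinas had a lowest, median and highest of 40.8, 44.5 and 56.6 CPM, against 37.004, 28.3, 28.1, 33.6 and 24.8 CPM in control retinas, and every light damage library was above every control library. Vehicle plus light retinas had 48.1, 56.6, 60.9, 42.2 and 67.6 CPM, against 32.97, 18.3, 37.7, 38.98 and 39.8 CPM in vehicle retinas, again with separate ranges. Nanoceria plus light retinas had 54.3, 68.2, 46.5, 20.1 and 79.2 CPM, against 38.6, 22.9, 33.02 and 40.1 CPM in nanoceria retinas, and 1 library of the 5, number 4, lay below all those without light. On the log2 scale light changed Rdh8 by 0.63 ± 0.23 (SE; adjusted p = 0.0442) without injection, 0.71 ± 0.24 (SE; adjusted p = 0.0407) after vehicle and 0.68 ± 0.26 (SE; adjusted p = 0.0822) after nanoceria, the last not past the threshold. Without nanoceria plus light library 4 it was 0.89 (adjusted p = 0.00524). The first 2 calls were close to the threshold, and summing the near-identical pairs gave adjusted p = 0.0509 and 0.0514. Leaving out 1 library at a time kept the call in 3 of 12 fits without injection and in 3 of 10 after vehicle, with log2 fold changes of 0.58 to 0.71 and 0.56 to 0.79.

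Rpe65, the isomerase of the pigment epithelium that regenerates the cis retinoid, fell in uninjected retinas. Light damage retinas had a lowest, median and highest of 122, 137 and 330.1 CPM, against 785, 375, 487, 721 and 374 CPM in control retinas, with the highest light damage library below the lowest control library. The log2 fold change was -1.54 ± 0.29 (SE; adjusted p = 0.000265), a level 0.343 times that of control retinas. In the injected pairs the groups overlapped. Vehicle plus light retinas had 204, 271, 333, 261 and 174 CPM, against 661, 348, 205, 229 and 224 CPM in vehicle retinas, and nanoceria plus light retinas had 156, 209.6, 324, 167 and 155 CPM, against 222, 297, 331 and 302 CPM in nanoceria retinas. Library 1 of vehicle was far above the other 4 of its group. The log2 fold changes there were -0.42 ± 0.32 (SE; adjusted p = 0.425) and -0.51 ± 0.34 (SE; adjusted p = 0.37), with 95% intervals of -1.08 to 0.23 and -1.20 to 0.18, both of which include 0. Without vehicle library 1 the first was -0.02, the smallest in size among fits that left out 1 library.

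Rlbp1, which encodes the cis retinoid carrier of the pigment epithelium and Mueller glia, fell in uninjected retinas too. Light damage retinas had a lowest, median and highest of 212, 240.4 and 454 CPM, against 863, 601, 710.2, 673 and 409 CPM in control retinas, and only control library 6 lay within the light damage range. The log2 fold change was -1.17 ± 0.21 (SE; adjusted p = 0.000171). Vehicle plus light retinas had 220.1, 309, 425, 286 and 425 CPM, against 521, 565, 506, 441 and 435 CPM in vehicle retinas, and nanoceria plus light retinas had 282, 463, 326, 185 and 414 CPM, against 464, 463, 439 and 594 CPM in nanoceria retinas. Ranges were separate after vehicle and overlapped after nanoceria. The log2 fold changes of -0.57 ± 0.23 (SE; adjusted p = 0.0997) and -0.55 ± 0.25 (SE; adjusted p = 0.149) did not pass the threshold, though with only the 2 groups in the fit the first had adjusted p = 0.0448. Of 10 Mueller glia markers, 5 fell and 0 rose in light damage against control retinas, with a median log2 fold change of -0.33. In the vehicle pair 2 fell and 1 rose, and in the nanoceria pair 1 fell and 1 rose. Their summed level had medians of 5250.4 CPM in light damage and 7290.0 CPM in control retinas. Their part in the Rlbp1 result was not tested.

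Rdh5, the cis retinol dehydrogenase of the pigment epithelium, fell in all 3 comparisons. It averaged 50.7 ± 10.9 CPM in light damage (SD, n = 7) and 87.4 ± 28.3 CPM in control retinas (n = 5), 41.98 ± 17.0 CPM in vehicle plus light and 85.1 ± 11.9 CPM in vehicle retinas (n = 5 each), and 46.8 ± 16.8 CPM in nanoceria plus light (n = 5) and 92.6 ± 23.8 CPM in nanoceria retinas (n = 4). Ranges were separate in the injected pairs and overlapped in the uninjected one. Its log2 fold change was -0.79 ± 0.24 (SE; adjusted p = 0.0176), -1.02 ± 0.27 (SE; adjusted p = 0.00738) and -0.98 ± 0.28 (SE; adjusted p = 0.0165). The uninjected call was lost without control library 1 (adjusted p = 0.0849) or 4 (adjusted p = 0.0547), and that after nanoceria without nanoceria library 5 (adjusted p = 0.0798) or nanoceria plus light library 4 (adjusted p = 0.0552). The RefSeq span of Rdh5 overlaps that of Cd63, a membrane protein gene, and since the strand setting of the counting is not given, reads of the overlapping part cannot be assigned to 1 of them. Cd63 itself had log2 fold changes of 0.64, 0.42 and 0.41 in the 3 comparisons, opposite in sign to Rdh5.

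Lrat, the acyltransferase that stores retinol as esters, changed least among the called genes. It averaged 101 ± 23.6 CPM in light damage (SD, n = 7) and 147 ± 45.9 CPM in control retinas (n = 5), 105 ± 21.0 CPM in vehicle plus light and 151 ± 29.3 CPM in vehicle retinas (n = 5 each), and 108 ± 29.0 CPM in nanoceria plus light (n = 5) and 180.2 ± 48.2 CPM in nanoceria retinas (n = 4). Ranges overlapped in all 3 pairs. Its log2 fold change was -0.55 ± 0.20 (SE; adjusted p = 0.0484), -0.53 ± 0.22 (SE; adjusted p = 0.0988) and -0.73 ± 0.23 (SE; adjusted p = 0.0316). The uninjected value lay close to the threshold, and 6 of 12 fits that left out 1 library kept the call, with adjusted p up to 0.204 without control library 5. Summing the near-identical pairs gave adjusted p = 0.103, and the call after nanoceria held in 4 of 9 fits that left out 1 library. It was lost without nanoceria library 2 or 5 or nanoceria plus light library 1, 3 or 4, with adjusted p up to 0.159, without nanoceria library 5. The RefSeq span of Lrat overlaps that of a long noncoding RNA gene, with the same limit on assigning reads.

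Rdh10, a retinol dehydrogenase of the pigment epithelium and Mueller glia that also serves retinoic acid synthesis, was level across the groups. It averaged 213 ± 25.7 CPM in light damage (SD, n = 7) and 199 ± 36.8 CPM in control retinas (n = 5), and the 6 group means lay between 189 and 213 CPM. Its log2 fold change was 0.09 ± 0.11 (SE; adjusted p = 0.605), -0.03 ± 0.12 (SE; adjusted p = 0.928) and -0.04 ± 0.12 (SE; adjusted p = 0.882). The 95% intervals were -0.13 to 0.32, -0.26 to 0.21 and -0.30 to 0.21, none of which reaches beyond 0.32 on the log2 scale in either direction.

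The levels were then set against markers of the cells in which the genes are known to act, a step added after the values had been seen. For each library the mean log2 CPM of 11 rod markers or 20 pigment epithelium markers was subtracted from the log2 CPM of the gene, and light was compared with no light by an exact 2-sided permutation test over libraries, without adjustment over the 30 tests. With the median of the markers in place of their mean, 7 of the 30 changed sides of 0.05: Lrat and Rlbp1 after vehicle and Lrat and Rdh5 after nanoceria passed it, and Rbp3 and Abca4 after vehicle and Rdh12 after nanoceria no longer did. The smallest possible p was 0.00126 in the uninjected pair and 0.00794 in the injected pairs. The rod markers themselves fell in 10, 8 and 9 of 11 cases in the uninjected, vehicle and nanoceria pairs, with a median log2 fold change of -1.30, -1.31 and -1.26, and their summed level had medians of 11164 CPM in light damage and 45468 CPM in control retinas. Relative to them Rbp3 fell by a smaller amount, with differences of -0.17 (exact p = 0.00253), -0.27 (exact p = 0.00794) and -0.37 (exact p = 0.00794). Abca4 was higher relative to the rod markers by 0.27 (exact p = 0.0164), 0.30 (exact p = 0.0159) and 0.54 (exact p = 0.0238). Rdh12 differed by 0.32 (exact p = 0.00884), 0.20 (exact p = 0.262) and 0.35 (exact p = 0.0238), and Rdh11 by 0.61 (exact p = 0.00126), 0.56 (exact p = 0.00794) and 0.60 (exact p = 0.0238). Rdh11 is also found in the pigment epithelium, and its level relative to the pigment epithelium markers was not computed. The difference was largest for Rdh8, at 2.05, 2.21 and 2.05 (exact p = 0.00126, 0.00794 and 0.00794), with separate ranges in each pair. Because the rod markers fell, a gene whose CPM did not change would also be higher relative to them. These exact p-values therefore cannot show that a gene itself rose, and the value for an unchanged gene was not computed.

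The pigment epithelium markers moved little as a group. Of 20, 3 fell (Kcnj13, a potassium channel, Ttr, a retinol transport protein, and Slc26a7, an anion exchanger) and 1 rose (Krt18, a keratin) in light damage against control retinas, with a median log2 fold change of -0.08. Kcnj13 fell and Krt18 rose in both injected pairs, and no other marker was called there. Their summed level ranged over 4096 to 5962 CPM in light damage and 4154 to 6460.0 CPM in control retinas. Relative to the mean of these markers, Rpe65 differed by -1.45 (exact p = 0.00253) without injection, with separate ranges, and by -0.22 (exact p = 0.667) and -0.39 (exact p = 0.151) after injection. Rlbp1 differed by -1.07 (exact p = 0.00379), -0.52 (exact p = 0.0556) and -0.45 (exact p = 0.246). Rdh5 differed by -0.63 (exact p = 0.00126), -1.02 (exact p = 0.00794) and -0.88 (exact p = 0.0635), and Lrat by -0.40 (exact p = 0.0543), -0.44 (exact p = 0.0556) and -0.58 (exact p = 0.0873). Rdh10 had the opposite sign, at 0.23 (exact p = 0.0505), 0.06 (exact p = 0.714) and 0.12 (exact p = 0.881), with overlapping ranges in each pair. The change of Rpe65 in uninjected retinas was thus -1.45 against these markers, beside -1.54 against the whole library.

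**Figure D3:**
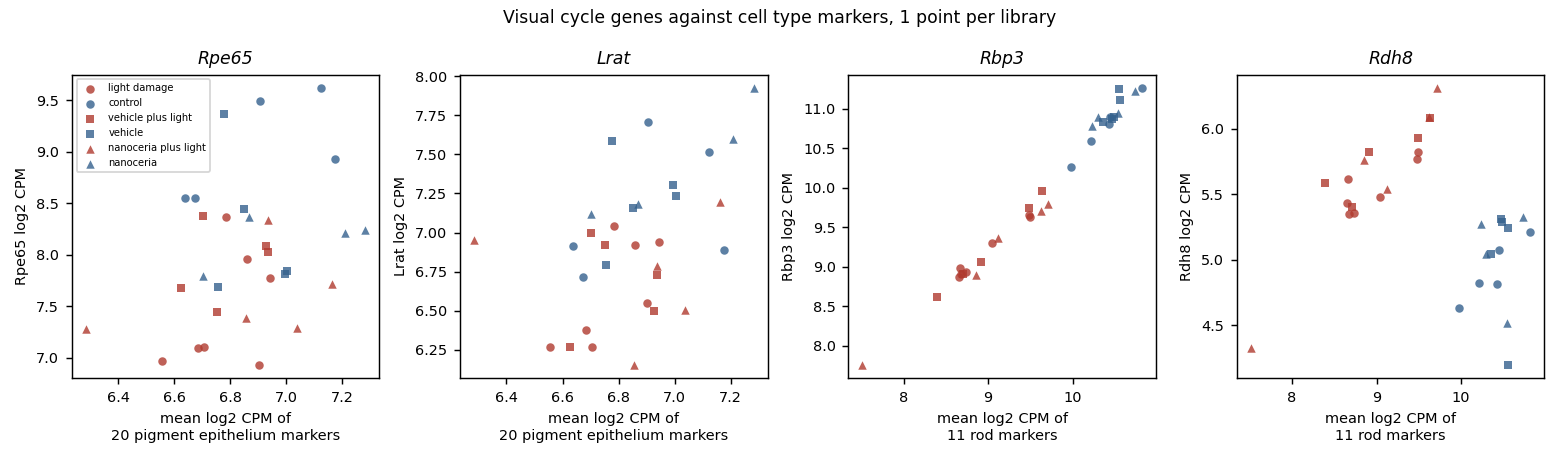
Log2 CPM of Rpe65 and Lrat against the mean log2 CPM of 20 pigment epithelium markers, and of Rbp3 and Rdh8 against that of 11 rod markers, with 1 point per library, red for light and blue for no light. Rbp3 follows the rod markers along 1 line in all libraries, Rdh8 forms a separate band for each light condition apart from nanoceria plus light library 4 at the lower left, and Rpe65 is lower in light damage than in control libraries with similar marker levels.

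No visual cycle gene was called in any of the 6 comparisons between injections, which ask what vehicle or nanoceria does to the retina with and without light. In vehicle against control retinas 0 of 10 were called by edgeR, against 0.0221% of all genes, and in nanoceria against control retinas 0 of 10, against 2.46%. At an unadjusted p under 0.05 there was 1 gene in each, Rpe65. In nanoceria against vehicle retinas 0 were called, against 0%, and 0 had an unadjusted p under 0.05. Rdh12 had separate ranges there, 50.3 to 69.9 CPM in nanoceria and 70.8 to 74.0 CPM in vehicle retinas, with an unadjusted p of 0.229. The share of all genes with separate ranges was not computed for that pair. Under light, 0 were called and 0 had an unadjusted p under 0.05 in vehicle plus light against light damage (0.122% of all genes called), nanoceria plus light against light damage (0.0608%) and nanoceria plus light against vehicle plus light (0%). DESeq2 also called 0 in all 6, and limma-voom called 0 in 5 and 1, Rpe65, in vehicle against control retinas, where it called 2212 of all 18094 genes. Fold changes on the log2 scale ran from -0.72 (Rpe65) to 0.29 (Rdh12) for vehicle and from -0.93 (Rpe65) to 0.29 (Lrat) for nanoceria against control, and from -0.30 (Rpe65) to 0.16 (Rdh5) between nanoceria and vehicle under light. In that last comparison the 95% intervals of the 10 genes lay within -0.95 to 0.70. The comparisons with control share the control libraries.

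Rpe65 without light averaged 334 ± 191 CPM in vehicle (SD, n = 5), 288 ± 46.5 CPM in nanoceria (n = 4) and 549 ± 194 CPM in control retinas (n = 5). Every nanoceria library was below every control library, while vehicle library 1 lay within the control range. The share of all genes with separate ranges in nanoceria against control retinas was not computed. The log2 fold change of Rpe65 was -0.72 ± 0.32 (SE; adjusted p = 0.597), unadjusted p = 0.0325, for vehicle and -0.93 ± 0.34 (SE; adjusted p = 0.17), unadjusted p = 0.0115, for nanoceria, neither past the threshold after adjustment. Without vehicle library 1 the value for vehicle was -1.12 (adjusted p = 0.164), and fits that left out 1 library ran from -1.12 to -0.56. It was -0.49 (adjusted p = 0.871) with a term for sex and -0.61 (adjusted p = 0.995) with near-identical pairs summed. The Y-linked gene that set this term was high in 1 of 5 vehicle and 4 of 5 control libraries. With limma-voom and quality weights the value for vehicle was -0.95 (adjusted p = 0.0259). Adjusted p for vehicle lay between 0.492 and 0.995 under the other 8 settings, and for nanoceria between 0.101 and 0.247 under all 9. Lens markers were high in some vehicle retinas, with a median summed level of 9639 CPM in vehicle, 2346 CPM in nanoceria and 2722 CPM in control retinas, and their part in the Rpe65 values was not tested. Under light Rpe65 averaged 249 ± 61.8 CPM in vehicle plus light, 202 ± 71.4 CPM in nanoceria plus light (SD, n = 5 each) and 188 ± 80.0 CPM in light damage retinas (n = 7), which overlap.

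**Figure D4:**
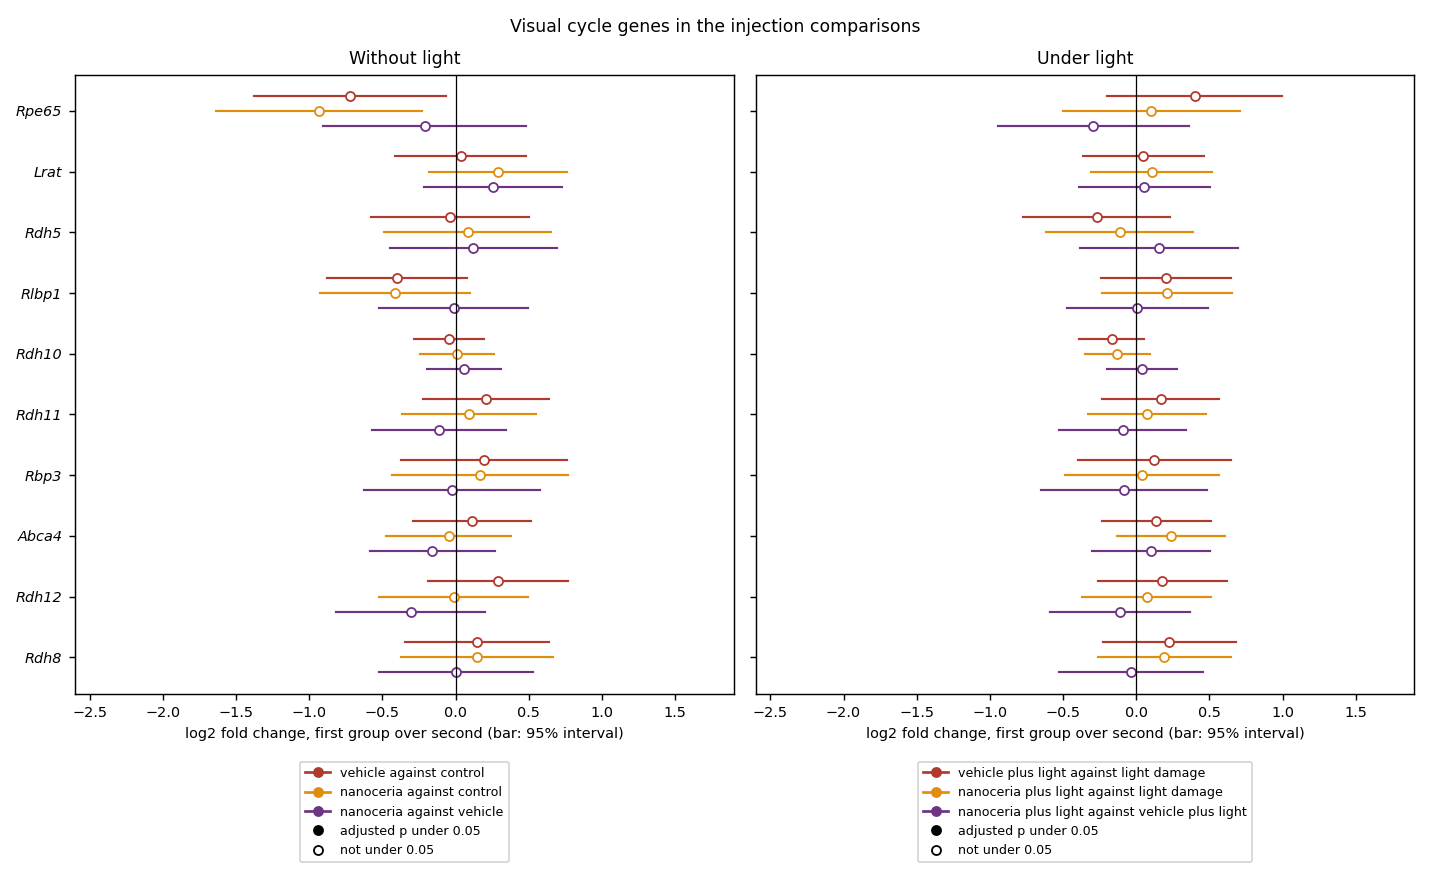
Log2 fold changes of the 10 genes between injections, without light on the left and under light on the right, with 95% intervals and open circles since no adjusted p was under 0.05. The values of Rpe65 against control, -0.72 for vehicle and -0.93 for nanoceria, are the only 2 whose intervals leave out 0.

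Whether the response to light itself depended on the injection was tested as a difference of 2 fold changes. For vehicle minus no injection 0 of 10 genes were called by edgeR, against 0.0442% of all genes, for nanoceria minus no injection 0, against 0.409%, and for nanoceria minus vehicle 0, against 0%. At an unadjusted p under 0.05 there was 1, 1 and 0, and DESeq2 and limma-voom called 0 in all 3. The 1 gene was Rpe65, with a difference of 1.12 ± 0.43 (SE; adjusted p = 0.68) and an unadjusted p of 0.0154 after vehicle, and of 1.03 ± 0.45 (SE; adjusted p = 0.42) and an unadjusted p of 0.029 after nanoceria. Its smaller fall in injected retinas was therefore not shown to differ from that in uninjected ones once all genes were counted. Rlbp1 had the next values, 0.60 ± 0.32 (SE; adjusted p = 0.898) and 0.62 ± 0.33 (SE; adjusted p = 0.572). The genes set against rod markers, Rbp3, Abca4, Rdh12, Rdh11 and Rdh8, had differences between -0.13 and 0.28 in these 2 tests. Between nanoceria and vehicle the difference was -0.08 ± 0.46 (SE; adjusted p = 1) for Rpe65 and -0.06 ± 0.40 (SE; adjusted p = 1) for Rbp3, with 95% intervals of -1.03 to 0.87 and -0.88 to 0.77.

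Ordered by group mean, Rbp3, Abca4, Rdh11 and Rdh12 were highest in vehicle retinas and lowest in light damage retinas, with the 3 groups without light above the 3 illuminated ones. For Rbp3, Abca4, Rdh5 and Rdh12 the gap between the lowest group without light and the highest illuminated group was 2.24 to 3.22 times the larger SD of those 2 groups, and their ranges did not overlap. The share of all genes with such a gap was not computed. All other neighbours in the order of these 4 genes overlapped and lay within 1 SD of each other. Rdh8 had the 3 illuminated groups above the 3 others, with vehicle plus light highest and control lowest, and a gap of 1.72 SD between light damage and nanoceria, the neighbours on either side. For Rpe65 the order was control, vehicle, nanoceria, vehicle plus light, nanoceria plus light and light damage, and every pair of neighbours overlapped. For Lrat, Rlbp1, Rdh10 and Rdh11 all neighbours overlapped as well.

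Some other retinoid genes changed with light. Of 24 measured genes of visual cycle, uptake and storage outside the 10, 1 rose and 3 fell in light damage against control retinas, with a median log2 fold change of -0.15; over all tested genes 11.9% rose and 10.6% fell. Scarb1, a receptor for lipoproteins and carotenoids, had a log2 fold change of -0.33 ± 0.09 (SE; adjusted p = 0.011) and Ttr, the plasma carrier of retinol-binding protein, -0.60 ± 0.21 (SE; adjusted p = 0.0374). Ttr is also 1 of the 20 pigment epithelium markers. Dhrs9, a short-chain retinol dehydrogenase, rose, with 9.82 ± 3.74 CPM in light damage and 3.27 ± 1.74 CPM in control retinas and a log2 fold change of 1.59 ± 0.48 (SE; adjusted p = 0.0173). Scarb1 and Dhrs9 were also called in the vehicle pair. In vehicle plus light against vehicle retinas 3 of the 24 rose and 3 fell, with a median of 0.11, against 9.67% and 7.17% of all genes. Dhrs7, a further short-chain dehydrogenase, had a log2 fold change of -0.30 ± 0.09 (SE; adjusted p = 0.0239), while Bco1, the enzyme that cleaves carotene to retinal, had 1.60 ± 0.40 (SE; adjusted p = 0.00587) and Degs1, a desaturase also proposed to isomerise retinol, 0.20 ± 0.06 (SE; adjusted p = 0.0282). Bco1 was low, at 1.60 ± 0.971 CPM in vehicle plus light and 0.532 ± 0.29 CPM in vehicle retinas, and in the uninjected pair it was at 1.04 ± 0.398 CPM in light damage and 1.52 ± 0.574 CPM in control retinas, a log2 fold change of -0.58 ± 0.36 (SE; adjusted p = 0.286). In nanoceria plus light against nanoceria retinas 2 rose, Dhrs9 at 2.06 ± 0.56 (SE; adjusted p = 0.0129) and Bco1 at 1.42 ± 0.43 (SE; adjusted p = 0.0261), and 1 fell, with a median of 0.07, against 8.15% and 5.78% of all genes. The remaining calls in the vehicle pair, picked out after their values were seen, were Dhrs9 at 1.46 ± 0.51 (SE; adjusted p = 0.0462) and Scarb1 at -0.29 ± 0.10 (SE; adjusted p = 0.0474).

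Of 13 measured genes of retinoic acid synthesis, binding, breakdown and reception, 1 rose and 1 fell in light damage against control retinas, 0 rose and 2 fell in the vehicle pair, and 1 rose and 0 fell in the nanoceria pair. Over all tested genes 11.9% rose and 10.6% fell in the uninjected pair. The shares were 9.67% and 7.17% in the vehicle pair, and 8.15% and 5.78% in the nanoceria pair. The median log2 fold changes were -0.12, -0.07 and -0.12. Aldh1a2, which makes retinoic acid, had 1.02 ± 0.32 (SE; adjusted p = 0.0344) in nanoceria plus light against nanoceria retinas, where it averaged 23.0 ± 14.6 CPM in nanoceria plus light (SD, n = 5) and 11.4 ± 1.67 CPM in nanoceria (n = 4). The others, picked out after their values were seen, were the receptor genes Rarb at 0.24 ± 0.09 (SE; adjusted p = 0.0443) and Rxra at -0.35 ± 0.13 (SE; adjusted p = 0.046) without injection, and the binding protein gene Crabp1 at -0.55 ± 0.18 (SE; adjusted p = 0.0342) and the receptor gene Rara at -0.19 ± 0.06 (SE; adjusted p = 0.0363) after vehicle. In the 6 injection comparisons and 3 interactions edgeR called 0 of the 37 genes, with 0 to 4 of the 24 and 0 to 2 of the 13 at an unadjusted p under 0.05.

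The genes whose pattern over the 31 libraries was most like that of each visual cycle gene were picked by Pearson correlation of log2 CPM among 12977 genes with a mean log2 CPM of at least 1. The libraries share the same 6 groups, so these values are given as a description. Near Rbp3 were Slc24a1 (r = 0.995, Spearman 0.98) and Aipl1 (r = 0.992, Spearman 0.97), genes of rod phototransduction. For Abca4 they were Rcvrn (r = 0.983, Spearman 0.97), Tulp1 (r = 0.983, Spearman 0.98) and Slc24a1 (r = 0.983, Spearman 0.97), also photoreceptor genes. For Rdh12 the nearest was Rom1, a disc rim protein gene (r = 0.976, Spearman 0.97), and for Rlbp1 it was Rrh, an opsin gene of the pigment epithelium (r = 0.938, Spearman 0.91). For Rdh8 it was Faap100 and then Fscn2, a photoreceptor actin bundling gene (r = 0.882 and 0.877, Spearman 0.91 and 0.91). The nearest to Rpe65 was Hhatl (r = 0.798, Spearman 0.81), to Lrat Col8a1, a collagen gene (r = 0.908, Spearman 0.89), to Rdh5 Adra2c (r = 0.939, Spearman 0.95), to Rdh11 Bbs9 (r = 0.978, Spearman 0.96) and to Rdh10 Dhps (r = 0.677, Spearman 0.65).

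The same measure after removal of each group mean leaves the variation between libraries of 1 group. Rom1 stayed nearest to Rdh12 (r = 0.947, Spearman 0.94). For Rlbp1 the nearest became Rom1 (r = 0.94, Spearman 0.92), followed by Rdh11 (r = 0.939, Spearman 0.91). For Rdh5 it was Gngt1, a rod transducin subunit gene (r = 0.916, Spearman 0.93), and for Rpe65 it was Sucla2 (r = 0.794, Spearman 0.82). Among the members, Rdh11, Rbp3, Abca4 and Rdh12 correlated with each other at r = 0.95 to 0.98 over all libraries and at r = 0.83 to 0.94 within groups. Rdh8 correlated with those 4 at r = -0.32 to -0.21 over all libraries and at r = 0.65 to 0.77 within groups. Pooled over the groups, a retina with high Rbp3 in its own group thus tended to have high Rdh8, but not in every group. Vehicle library 2 had the lowest Rdh8 of its group, 18.3 CPM, with Rbp3 above the group median of 1896.5 CPM. Nanoceria plus light library 4 was the lowest of its group for both, at 217 CPM for Rbp3 and 20.1 CPM for Rdh8. The correlation without it was not computed. The change with light was opposite in sign for the 2 genes.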

How the data were processed

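Libraries of polyA RNA from rat retina were read from both ends, per the labels. The deposited matrix holds raw read counts per gene, and the authors' normalization is not part of it: the values are whole numbers whose totals differ between libraries. The submitters' processing notes name build rn6 and, as tools, featureCounts, Subread 2.0.1, STAR 2.7.9a, R 4.0, DESeq2 1.30.1 and Trimmomatic 0.39. Strand setting, annotation release and handling of multi-mapping reads were not given in the sources used here. Of 42 labelled samples, 31 were analysed and 11 were not analysed here. Some genes that the naming rule picks are not reported here.

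Counts of 18094 genes that passed filterByExpr (minimum count 10, minimum total 15) were fitted over all 31 libraries with edgeR 4.0.16 (TMM, robust quasi-likelihood test, 1 coefficient per group) in R 4.3.3, with Benjamini-Hochberg adjustment over all genes and calls at an adjusted p under 0.05. SE is the size of the log2 fold change divided by the root of its F value, and intervals are 95%. Log2 CPM for correlations and marker means had a prior count of 2. The fit was also run on simulated data with independent libraries, without the near-identical pairs, and the outcome is not given here. Replicates are separate animals as far as the design text says. Same-numbered nanoceria and vehicle libraries deviated together (3 pairs, r of 0.26 to 0.47). The main fit nonetheless has no replicate block, since no label says that the numbers mark a shared litter, batch or day. With a block, as an alternative, 0 genes were called between those 2 groups, as without it. The visual cycle genes, lists and tests were chosen with earlier results of these data known. Named beside them are the 4 other retinoid genes with the smallest adjusted p in each light comparison and, from the 3 genes most like each visual cycle gene, those that rank highest. Alternatives were DESeq2 1.42.0 size factors, library size alone, no filter, the DESeq2 Wald test, limma-voom (limma 3.58.1), only the groups compared, a replicate block, a term for sex, summed near-identical pairs and each library left out.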

Additional observations from a re-analysis of the deposited data

Results flagged for a closer look

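Of 60 combinations of a visual cycle gene and a group, 2 held a library far from the others of its group, and chance alone gives about 1 in 20. Rdh5 in vehicle library 1 was at 106 CPM, and the next library of that group at 81.6 CPM. Rlbp1 in nanoceria library 5 was at 594 CPM, and the next at 464 CPM.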

How the results depend on the processing

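No called result turned its direction under any alternative. The count of visual cycle genes called higher in light damage against control retinas, 1, became 0 without the filter, with a replicate block, with a term for sex and with near-identical pairs summed, and lay between 0 and 1 when 1 library was left out. That in vehicle plus light against vehicle retinas, 1, became 0 without the filter, with a replicate block and with pairs summed, and lay between 0 and 1 when 1 library was left out. That in nanoceria plus light against nanoceria retinas, 0, lay between 0 and 1. The gene was Rdh8 each time. The count called lower in nanoceria plus light against nanoceria retinas, 6, became 2 with only the groups compared, where Lrat, Rdh5, Abca4 and Rdh12 had adjusted p of 0.0789 to 0.0968, and lay between 4 and 6 when 1 library was left out. Counts called lower when 1 library was left out lay between 6 and 8 in light damage against control retinas and at 5 in vehicle plus light against vehicle retinas, where limma-voom added Lrat (adjusted p = 0.0157) and the fit with only the groups compared added Rlbp1 (adjusted p = 0.0448). The count called lower in vehicle against control retinas, 0, became 1 with limma-voom. Without injection, Lrat lost its call under 7 of 9 settings.

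Replicate numbers were not a block in the main fit, and whether they pair samples was not settled. Apart from nanoceria against vehicle, deviations of same-numbered libraries correlated between -0.37 and 0.68. The r was over 0.1 in 4 of 5 pairs for light damage against control and 3 of 4 for nanoceria plus light against nanoceria. For vehicle plus light it was in 1 of 4 against vehicle and 2 of 5 against light damage. For nanoceria plus light it was in 3 of 4 against vehicle plus light and 2 of 5 against light damage. Vehicle and nanoceria against control had 0 of 3 each. With a replicate block Rdh8 had log2 fold changes of 0.63 (adjusted p = 0.0596) and 0.71 (adjusted p = 0.071) in the uninjected and vehicle pairs, Lrat had -0.50 (adjusted p = 0.0629) in the uninjected pair, and no other call of a visual cycle gene changed.

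Counts over all genes moved by more than 1.5 times under these settings. Vehicle plus light against vehicle, 3046, gave 5215 (limma-voom). Nanoceria plus light against nanoceria, 2520, gave 1107 (only the groups compared). Vehicle against control, 4, gave 52 (DESeq2), 2212 (limma-voom), 0 (only the groups compared), 1 (term for sex). Nanoceria against control, 445, gave 727 (DESeq2), 1275 (limma-voom), 184 (replicate block). Nanoceria against vehicle, 0, gave 40 (DESeq2), 1486 (limma-voom). Vehicle plus light against light damage, 22, gave 89 (DESeq2), 228 (limma-voom). Nanoceria plus light against light damage, 11, gave 89 (DESeq2), 37 (limma-voom), 5 (only the groups compared), 7 (near-identical pairs summed). Nanoceria plus light against vehicle plus light, 0, gave 4 (DESeq2). The difference of light responses gave 40 (DESeq2), 118 (limma-voom), 5 (replicate block), 5 (near-identical pairs summed) against 8 for vehicle minus no injection, 1 (DESeq2) against 0 for nanoceria minus vehicle and 275 (DESeq2), 16 (replicate block), 47 (term for sex), 39 (near-identical pairs summed) against 74 for nanoceria minus no injection. Leaving out 1 library gave 1 to 24 genes in vehicle against control, 205 to 432 in nanoceria against control, 0 to 3 in nanoceria against vehicle, 5 to 47 in nanoceria plus light against light damage, 5 to 21 in the difference for vehicle minus no injection and 14 to 158 in that for nanoceria minus no injection, and 3439 to 4167, 2356 to 3159 and 1685 to 3052 in the uninjected, vehicle and nanoceria light comparisons. The causes were not tested.

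With the median in place of the mean of the markers, 4 of the 30 relative levels gained an exact p of at most 0.05, those of Lrat in the vehicle (0.0317) and nanoceria (0.0238) pairs, Rdh5 in the nanoceria pair (0.0238) and Rlbp1 in the vehicle pair (0.0397), and 3 lost it, those of Rbp3 (0.0556) and Abca4 (0.151) in the vehicle pair and Rdh12 in the nanoceria pair (0.0556), and averaging near-identical pairs changed none. Depth did not limit the visual cycle genes, but 4 to 7 libraries a group leave wide intervals.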
